A study of Mus musculus with 2 samples.

Results

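The Mest-Copg2-Klhdc10 domain is a group of neighbouring genes on mouse chromosome 6 that are listed as imprinted. Its members were taken by position alone, as every entry of the catalog of known imprinted genes that starts from 30.2 to 31.4 Mb on chromosome 6 of the mm9 build, and no expression value was used. The rule gave 6 of the 128 entries. Under their catalog names they are mKIAA0265, which is Klhdc10 in the gene annotation, Peg1, which is Mest, Copg2, Copg2as1/LB9_partialSeq (Copg2as1 from here on), Klf14 and klf14. RNA was sequenced from the whole brain of untreated F1 mice at E17.5. The BxC library came from a C57BL/6J mother and a CastEi/J father, and the CxB library from the reciprocal cross, so that each embryo carried 1 genome of each strain. The CxB brain was male, and which BxC brain stands behind its library is not stated. There was 1 library per cross and no replicate, so that cross, sex, individual and library cannot be told apart. No difference between the libraries could be tested, and all intervals cover counting error only.

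Imprinted genes are expressed mainly from the allele of 1 parent, and they tend to lie in clusters controlled by DNA whose methylation is set in the parental germ line. Mest encodes a protein with the fold of the alpha/beta hydrolases and is the classic paternally expressed gene of this cluster. Copg2 encodes a gamma subunit of the COPI coat, which carries proteins back from the Golgi to the endoplasmic reticulum, and it lies tail to tail with Mest on the opposite strand. Copg2as1 lies inside an intron of Copg2, on the other strand. Klhdc10 encodes a kelch-repeat protein that selects substrates for an E3 ubiquitin ligase, and Klf14 is an intronless gene for a zinc finger transcription factor. The catalog marks Peg1 as expressed from the paternal allele, marks Copg2, Copg2as1 and klf14 as maternal, and gives no allele for mKIAA0265 and Klf14. The paper itself names Klhdc10 as a probable candidate for imprinting, without an independent assay. It reports imprinted expression of this gene in embryonic brain and adult preoptic area after summing reads over the variant positions of each gene. The files list no bases, so the expressed allele was not measured here.

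The deposited alignments summed to 128944754 reads for BxC and 109719746 for CxB, from 36575945 and 31155725 lines, with the count on each line taken as reads. Both sums exceed the average number of sequenced reads per library that the paper gives, and the reason was not tested. All read counts here rest on this meaning of the count, which was inferred. A minimum of 100 reads in each library left 15427 annotated genes, whose median log2 ratio of CxB to BxC RPM (reads of the gene in every 1000000 of the library) was -0.0011, and 5% of the genes lay below -0.29 and 5% above 0.28. Markers of neurons and of radial glia were high in both libraries, and 0 of 5 in either list differed by 1.5-fold. Nor did any of the 10 markers of meninges, choroid plexus and endothelium. Only 1.10% of the 15427 genes passed this fold, so a count of 0 in lists this short says little. Of the 4 listed genes of other tissues, Alb had 0 reads in BxC and 45 in CxB, and Ins2 had 6 and 26. Cpa1 had 34 and 18 reads, and the heart gene Myh6 had 217 and 201. The 4 blood markers were all lower in CxB, with a median log2 ratio of -0.32, and summed to 269 RPM in BxC and 217 RPM in CxB. The strand of a read did not mark the strand of its gene, since the median gene had only 44.0% of its reads on its own strand in BxC and 43.3% in CxB. Overlapping members were therefore separated by their exons and by reads that span a splice junction. Of the spliced reads in the domain and its flanks, 99.2% in BxC and 99.1% in CxB lay on annotated junctions. The paper describes alignment to junctions of gene models, so this share was largely set in advance. It does not test the assignment.

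Of the 6 members, 4 were well covered, and none of these 4 differed between the libraries by 1.5-fold. The same fold was passed by 1.10% of annotated genes with at least 100 reads in each library, or 169 of 15427. Peg1 had 16455 reads in BxC and 13460 in CxB, a log2 ratio of -0.06 (95% interval -0.09 to -0.02). Copg2 had 9218 and 7655 reads and a log2 ratio of -0.04 (-0.08 to 0.01). The mKIAA0265 entry had 10425 and 8152 reads and a log2 ratio of -0.12 (-0.16 to -0.08), but this entry is a span with introns, and over annotated Klhdc10 exons, the measure used for all other genes, the ratio was 0.06. Copg2as1 had the most reads of the 6 entries, 71781 and 49736, and a log2 ratio of -0.30 (-0.31 to -0.28), lower than in all but 4.82% of genes. By distinct positions this ratio turned to 0.21, where nearly every position of the entry was filled in each library, and on the sense strand alone it was -0.44. The blood markers moved in the same direction by a similar amount, and their part in the ratio of Copg2as1 was not tested. In the plot of library ratios, Peg1 and Copg2 lie near the middle of the distribution, mKIAA0265 at 20.5% of genes from its lower end, and Copg2as1 farthest from 0.

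**Figure D1:**
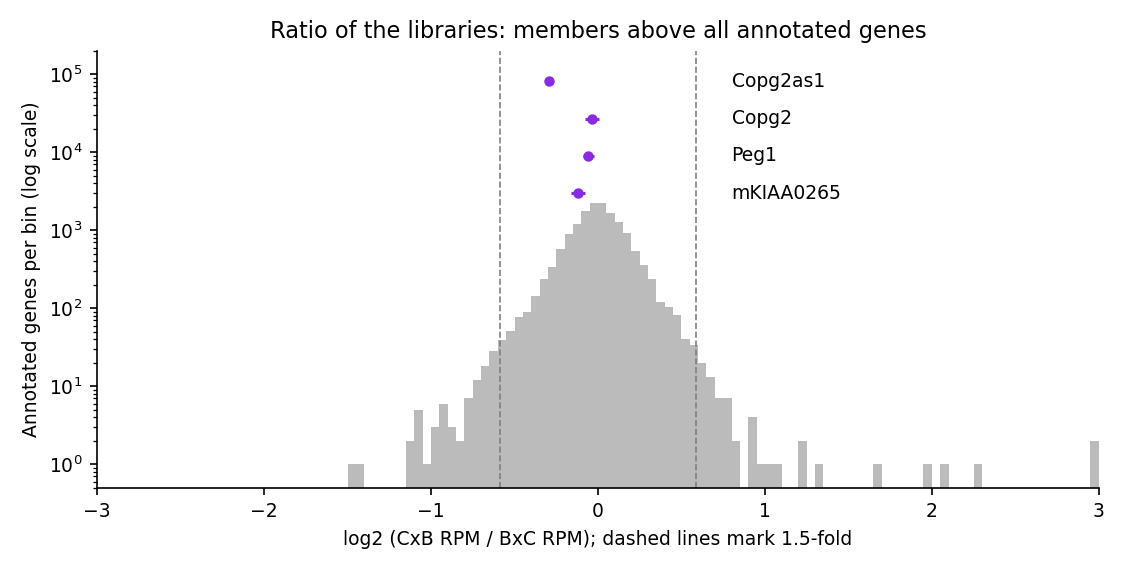
Grey bars count annotated genes with at least 100 reads in each library by their log2 ratio of CxB to BxC RPM, and purple points give the 4 well covered members with 95% counting intervals, at heights chosen only for display. Dashed lines mark 1.5-fold, the 2 genes beyond a log2 ratio of 3 are drawn in the outermost bin on the right, and all 4 members lie between the dashed lines.

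Mest was the best covered protein-coding member per length. The Peg1 entry (chr6:30688067-30698462, plus strand, 12 exons) had 50.2 reads per kilobase of exon, scaled like RPM (RPKM), in BxC and 48.2 in CxB. Its last exon runs under the last exon of Copg2, and the entries share 52 bases. In the annotation the overlap is longer, 904 bases. Over the 1635 bases of the entry that no other gene covers, the mean depth was 211 reads per base in BxC and 164 in CxB, and the log2 ratio was -0.13 (-0.17 to -0.09). The introns of Mest had a mean depth of only 3.67 and 3.06. Reads were found on all 11 junctions of the entry, with 84 (BxC) and 75 (CxB) per junction at the median. The most used junction carried 557 and 425 reads, and the least used carried 62 and 36.

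The annotation of Mest holds several first exons that join the same second exon, and junction reads can tell them apart. In BxC, all 72 reads into the second exon came from the exon that starts at chr6:30688050 (100%, Clopper-Pearson 95% interval 95.01 to 100%). In CxB, 75 of 76 did (98.7%, 92.9 to 99.97%), and the remaining read came from an exon that starts at chr6:30690240. That exon was also joined to the main first exon by 1 CxB read, so that it can be an internal exon of a transcript from the main start. The exons that start farther upstream, at 30673547, 30682532, 30683506 and 30683454, had 0 junction reads in either library, which allows up to 3 reads, a share of 4.17% in BxC and 3.95% in CxB, and by the Clopper-Pearson interval up to 4.99% and 4.74%. Junctions outside the sequences that the authors offered to the aligner could not be found. The sequence that these reads spanned is given below with the bases at the junction in capitals, 15 bases from each exon, where the intron is chr6:30688336-30690669 of mm9.
Mest exon 1 to exon 2: agatcgcttgcgcAGGAtgagagagtggtg

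The RefSeq promoters of Mest follow the same split. They are shown because they belong to the used and the unused start, each with 250 bases before and 50 bases after the start, CG steps in capitals, from RefSeq on GRCm38.p6 and found letter for letter in mm9 at the positions given. The promoter of the used start (chr6:30687800-30688099, plus strand) holds 17 CG steps, and 31.4% of the 32851 promoters in the RefSeq table hold at least as many. Its 50 transcribed bases had 190 reads in BxC and 168 in CxB. The promoter of the upstream start (chr6:30683256-30683555, plus strand) holds 8, where 48.65% of promoters hold at least as many, and its 50 transcribed bases had 0 reads in either library.
Used Mest start: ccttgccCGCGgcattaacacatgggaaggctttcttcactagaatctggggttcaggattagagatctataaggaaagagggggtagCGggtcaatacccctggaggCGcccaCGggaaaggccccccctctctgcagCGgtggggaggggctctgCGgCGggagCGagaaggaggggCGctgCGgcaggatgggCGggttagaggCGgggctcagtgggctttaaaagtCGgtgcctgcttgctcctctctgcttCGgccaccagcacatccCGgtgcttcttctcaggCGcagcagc
Upstream Mest start: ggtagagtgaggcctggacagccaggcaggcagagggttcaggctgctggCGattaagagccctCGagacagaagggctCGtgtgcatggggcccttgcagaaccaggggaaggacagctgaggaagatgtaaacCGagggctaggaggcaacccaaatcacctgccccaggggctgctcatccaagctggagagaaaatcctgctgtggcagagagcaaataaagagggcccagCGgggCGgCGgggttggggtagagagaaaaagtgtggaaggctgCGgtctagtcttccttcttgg

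Read depth stayed high past the annotated end of Mest. Depth over the 4 kb that follow the end, outside all annotated exons, was 114 in BxC and 91.0 in CxB, or 76.9% and 75.8% of the depth over all annotated Mest exons, unused first exons included (148 and 120). Against the exons of the Peg1 entry (229 and 186) the shares were 49.7% and 48.9%. For the 13626 protein-coding genes with such a stretch, the median was 2.25% and 2.31%. A share as high as that of Mest over its annotated exons was reached by 3.90% of these genes in BxC and 4.10% in CxB. A share as high as that against the Peg1 entry was reached by 6.47% and 6.83%. The other genes were measured over all their annotated exons, so this second comparison sets unlike exon sets side by side. Coverage went on through exons and introns of Copg2 alike, up to a run of 50000 unknown bases in mm9 (chr6:30702812-30752811), which begins 4354 bases after the Mest end. The introns in this stretch had a mean depth of 150 in BxC and 119 in CxB, and reads covered 99.14% and 98.97% of their bases. In 17 windows of 250 bases from the Mest end to the gap, depth ranged from 59.2 to 621 in BxC and from 49.9 to 485 in CxB. The log2 ratio of these windows ranged from -0.39 to 0.30, so that none passed 1.5-fold. Reads fell on both strands, and over the introns of this stretch 7309 lay on the plus and 7732 on the minus strand in BxC, and 5787 and 6183 in CxB. From the Mest end to the gap as a whole, exons included, the plus strand held 46.8% of reads in BxC and 45.8% in CxB, but 54.3% and 51.9% of distinct positions, so that the leading strand depended on what was counted.

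**Figure D2:**
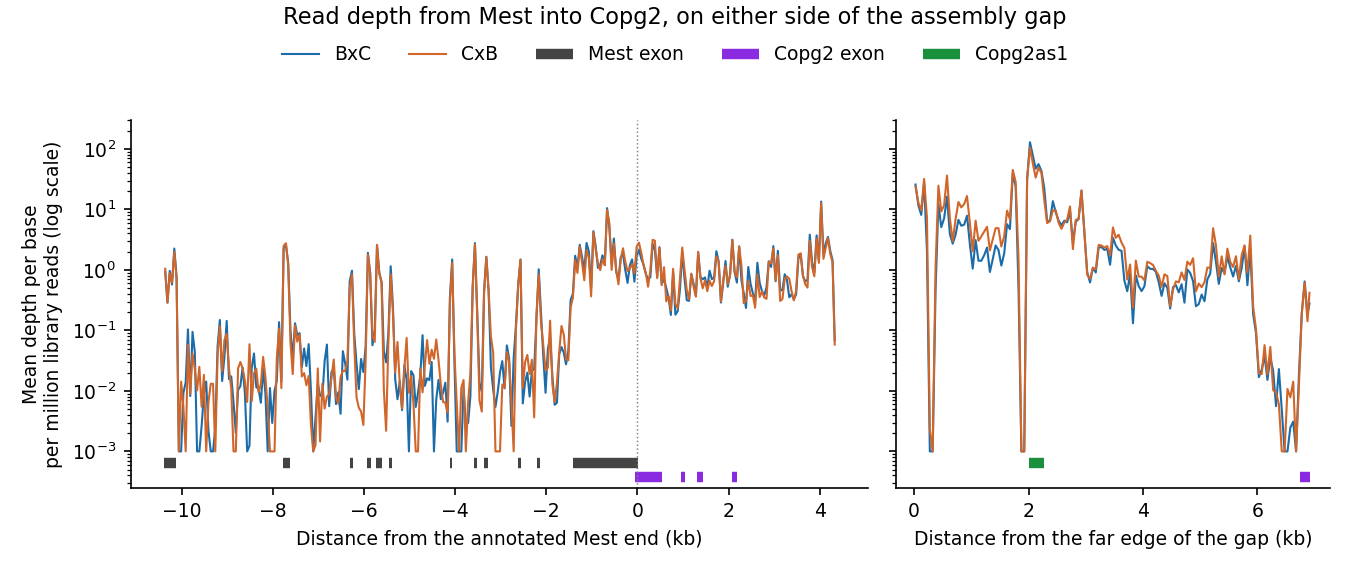
Mean read depth per base in bins of 50 bases, scaled to 1000000 reads of the library, on a log scale; the left panel runs from the start of Mest to the assembly gap and the right panel from the gap to the next Copg2 exon, and bins below 0.001 are drawn at 0.001. Depth falls between the Mest exons but stays high past the Mest end, and peaks over Copg2as1 on the far side of the gap.

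Copg2 (chr6:30698411-30846760, minus strand, 24 exons) crosses the gap, with exons 21 to 24 on the side of Mest and exons 1 to 20 on the far side. The 4 exons on the Mest side held 54.7% of the reads of the entry in BxC and 64.2% in CxB, although they make up 913 of its 3125 bases. Their level was 42.8 RPKM in BxC and 49.1 in CxB, against 14.7 and 11.3 RPKM for the 20 exons on the far side, 2.91-fold and 4.33-fold higher. The introns between exons 1 and 20 differed more from those on the Mest side. Their mean depth was 0.523 in BxC and 0.433 in CxB, against the depth of over 100 given above. The far-side part of the intron with the gap is not in these values. Outside Copg2as1, its mean depth was 464 in BxC and 519 in CxB.

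Spliced reads did not show this step. The 3 Copg2 junctions on the Mest side carried 12 (BxC) and 29 (CxB) reads at the median, and the 19 on the far side 20 and 21. The junction across the gap (intron chr6:30700636-30759558, 58923 bases) had 23 reads in BxC and 8 in CxB, from 11 and 5 distinct positions. All 23 junctions of the entry carried reads in both libraries. Each of these medians was lower than the medians of 84 and 75 reads on the junctions of Mest. The sequence across the gap is shown because it is the direct link between these groups of Copg2 exons, on the minus strand with the bases at the junction in capitals.
Copg2 exon 20 to exon 21: aagatcctacagcAGTTgcaggcaccttta

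Within the far side, exons 1 to 3 stood apart. They had a depth of 309 to 471 in BxC and 157 to 258 in CxB, where exons 4 to 20 ranged from 10.3 to 54.4 and from 10.4 to 47.6. Few positions made up these reads, since the 5 positions with the most reads held 58.8% of them in BxC and 53.8% in CxB, against 6.29% and 8.69% in exons 4 to 20. The junction from exon 2 to exon 3 alone had 1001 reads in BxC and 487 in CxB, from 25 and 18 distinct positions. Exons 1 to 3 were lower in CxB, with a log2 ratio of -0.66 (-0.75 to -0.57). Exons 4 to 20 had 1670 and 1392 reads and a log2 ratio of -0.03 (-0.13 to 0.07). On the Mest side the ratio was 0.20 (0.14 to 0.25), in the other direction. By reads, the ratio of the whole entry is thus a mixture of stretches that differed. Exons 1 to 3 had 174 distinct positions in BxC and 153 in CxB, and the Mest side had 1024 and 837. The libraries held 31613696 and 27132743 positions in all, and scaled by these, neither direction was kept. Without exons 1 to 3, the exons on the Mest side were 6.54-fold higher than the far side in BxC and 7.65-fold higher in CxB.

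**Figure D3:**
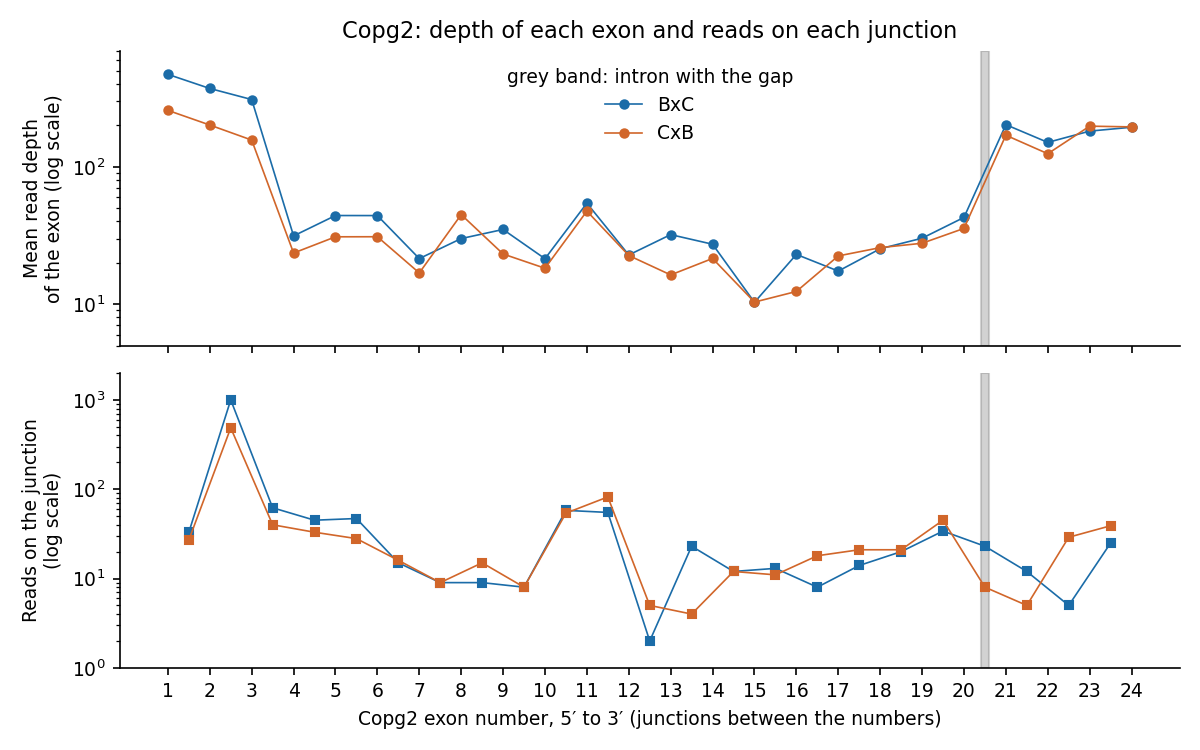
The upper panel gives the mean depth of each Copg2 exon and the lower panel the reads on each junction, both on log scales, for the BxC and CxB libraries. Exon depth rises past the grey band, which marks the intron with the assembly gap, from 42.8 to 203 in BxC, while the junctions on that side carry 5 to 39 reads, in the range of the junctions before it.

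The COPI coat subunits give a scale for Copg2. By all annotated exons, Copg2 had 27.1 RPKM in BxC and 26.6 in CxB, second in each library among the 10 genes listed, after Arf1, the small GTPase that recruits the coat, at 42.2 and 43.7. Its paralog Copg, the other gamma subunit, had 18.9 and 18.1 RPKM. The place of Copg2 rested on the exons next to Mest. Of the reads behind its level, 41.2% in BxC and 41.8% in CxB lay only in bases shared with the last Mest exon and cannot be assigned to either gene, and without these bases Copg2 had 19.95 and 19.4 RPKM and came 4th. By reads on the exons of the far side of the gap it came 7th, or 5th in BxC and 6th in CxB by distinct positions per kilobase. By reads without exons 1 to 3 it had 6.55 and 6.41 RPKM and came 9th, 2.89-fold and 2.82-fold below Copg. Only Copz2, a zeta subunit, was lower, at 1.14 and 1.02. The other genes were measured over all their annotated exons, 10905 bases in Copg, against 1978 bases in these Copg2 exons of the catalog entry. The ranks and folds by far-side exons therefore set unlike exon sets side by side. None of the 10 genes differed between the libraries by 1.5-fold, a fold that 1.10% of annotated genes passed. The median log2 ratio of the 10 was 0.0047.

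Copg2as1 was by far the most highly covered member. The entry (chr6:30754812-30755075, plus strand) spans 264 bases and starts 2000 bases past the gap, inside the Copg2 intron. The catalog names it a partial sequence, and the annotation lists no gene there. It had 2109 RPKM in BxC and 1717 in CxB, 42.0 and 35.6 times the level of Peg1. Of the 15427 annotated genes, 7 in BxC and 6 in CxB had as high a level. The entry is shown in full, since no gene model gives its sequence.
Copg2as1: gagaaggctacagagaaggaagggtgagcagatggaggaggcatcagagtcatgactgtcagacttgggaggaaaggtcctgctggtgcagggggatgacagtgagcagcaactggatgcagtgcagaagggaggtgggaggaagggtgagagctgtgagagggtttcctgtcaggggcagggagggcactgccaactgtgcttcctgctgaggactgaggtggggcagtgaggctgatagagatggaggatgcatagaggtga
The plus strand is rich in A and G, which make up 69.3% of its bases, against 60.5% from the gap to the next Copg2 exon. It holds 0 CG steps, and 35 lie in that whole stretch. None of its reads was spliced, but junctions outside the sequences offered to the aligner could not be found. Since the annotation lists no gene here, splicing of this RNA cannot be judged.

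Depth was uneven within Copg2as1. It was highest at base 2 of the entry, with 22921 reads in BxC and 16340 in CxB, and over consecutive stretches of 88 bases the mean went from 14100 to 6733 and 5736 in BxC and from 9504 to 4270 and 4423 in CxB. Reads began at 586 of the 598 possible positions and strands in BxC and at 582 in CxB, so that nearly every start was used. The files list many separate lines for the same position here, 24.4 lines per position in BxC and 17.4 in CxB, where the median gene had 1.05 and 1.04. Only 4 and 6 of the 15427 genes had as many. On the strand of the entry lay 52.1% of its reads in BxC (51.8 to 52.5%) and 47.1% in CxB (46.7 to 47.6%). By lines this share was 50.3% in both libraries and by distinct positions 50.9% in both.

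The coverage around Copg2as1 was not limited to the entry. From the gap to the next Copg2 exon, the remaining 6483 bases had a mean depth of 464 in BxC and 519 in CxB, higher than the Mest exons. Depth dropped near the end of this stretch, to 3.31 and 3.68 in the window that starts 6000 bases from the gap. Here the libraries differed by place. Outside the entry the stretch was higher in CxB, with a log2 ratio of 0.30 (0.28 to 0.31), while the entry itself was lower in CxB by the same amount. Windows next to the entry were also lower in CxB, with log2 ratios of -0.10 before it and -0.41 at its end. They count reads that reach into the entry, so that the place where the direction changes was not resolved. Of 24 windows of 250 bases with at least 100 reads in each library, 10 were higher in CxB by 1.5-fold and 0 were higher in BxC by that fold, with log2 ratios from -0.41 to 1.12. The windows from 250 to 1500 bases past the gap all had log2 ratios between 0.95 and 1.12. For the window that starts 1000 bases past the gap, the counts were 1910 (BxC) and 3527 (CxB). The 1.5-fold mark was passed by 1.10% of genes, which are longer than these windows, and neighbouring windows share reads.

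**Figure D4:**
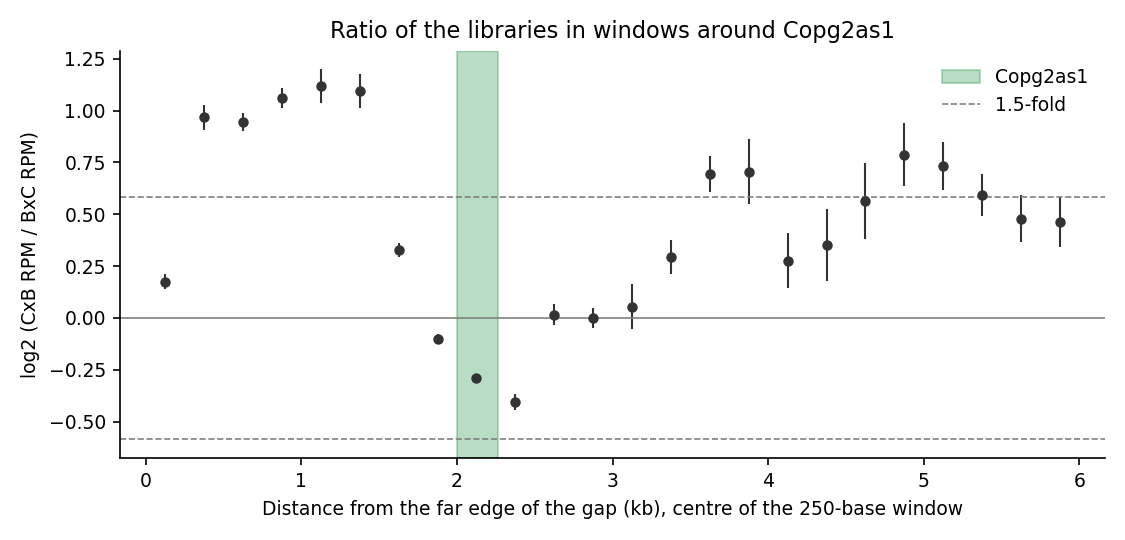
Points give the log2 ratio of CxB to BxC RPM in 250-base windows from the far edge of the assembly gap, with 95% counting intervals. Dashed lines mark 1.5-fold and the green band marks Copg2as1, where the ratio is below 0, between windows with ratios up to 1.12 on 1 side and 0.79 on the other.

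A repeat in the reference lies beside the entry. A comparison of the stretch with itself found 1 pair of similar segments, chr6:30752918-30753244 and chr6:30754505-30754833, which match at 89.4% of 330 aligned columns. They include a run of 192 bases that is identical in both copies, at chr6:30753033-30753224 and at chr6:30754619-30754810. The second segment runs 22 bases into Copg2as1, while its identical run ends just before the entry. No read lay wholly inside either copy of the run (0 in both libraries), as the files hold only uniquely aligned reads. Depth inside the run therefore rests on reads that reach past its edges, and the plot of read depth has a dip at each copy, both between the gap and Copg2as1. All windows of 36 bases within Copg2as1 occur only in this place among the known bases of mm9. This search took exact matches only and could not see the unknown bases of the gap, so it does not show that the sequence is unique in the genome. The run is shown in full because it sets where reads could be placed.
Repeated run, plus strand: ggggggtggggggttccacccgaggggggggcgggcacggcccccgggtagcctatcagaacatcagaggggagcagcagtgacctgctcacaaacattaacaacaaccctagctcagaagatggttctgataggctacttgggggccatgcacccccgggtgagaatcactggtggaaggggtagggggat

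Klhdc10 is entered in the catalog as mKIAA0265, a span of 48.93 kb without exons (chr6:30351910-30400839, plus strand). Of its reads, 57.6% in BxC and 62.3% in CxB touched annotated Klhdc10 exons, and 44.0% and 39.5% touched introns. The entry stops short of the annotated gene end, and the 4340 bases of exon beyond it held more reads than the whole entry, 12122 in BxC and 10989 in CxB. By all annotated exons, Klhdc10 had 16.6 RPKM in BxC and 17.3 in CxB, with a log2 ratio of 0.06 (0.03 to 0.09). Within the entry the introns were lower in CxB, with a log2 ratio of -0.28 (-0.34 to -0.21), while the exons had a ratio of -0.01 (-0.06 to 0.05).

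Exon 2 of Klhdc10 (chr6:30377709-30377795, 87 bases) was included in some transcripts and skipped in others. The junction that skips it had 155 BxC reads and 125 CxB reads. The junction into the exon had 41 and 24 reads, and the junction out of it 190 and 108. Inclusion was therefore 20.9% in BxC (15.4 to 27.3%) and 16.1% in CxB (10.6 to 23.01%) by the junction into the exon, but 55.1% (49.7 to 60.4%) and 46.4% (39.8 to 53.0%) by the junction out of it. By distinct positions the estimates were closer, 44.2% and 51.0% in BxC and 36.8% and 50% in CxB. On either junction the intervals of the libraries overlapped, but they take each read as independent. The reads into and out of the exon came from 19 and 25 distinct positions in BxC and 14 and 24 in CxB. The intervals can therefore be too narrow. The depth of exon 2 was 100 in BxC and 63.4 in CxB, below exon 1 at 198 and 200 and exon 3 at 175 and 130. Exons 6 to 8, which are also short, were shallower still in BxC, at 36.8 to 81.1, and at 35.4 to 62.0 in CxB, so that depth alone does not set exon 2 apart. The 3 junctions are shown to make the choice visible, with the bases at the junction in capitals; the introns are chr6:30352151-30377708, chr6:30377796-30389643 and chr6:30352151-30389643.
Exon 1 to exon 2: ggccgcacctgccAGGTaagaagaaaatac
Exon 2 to exon 3: acaggttcttgagAGGCcacagacctcccc
Exon 1 to exon 3: ggccgcacctgccAGGCcacagacctcccc

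**Figure D5:**
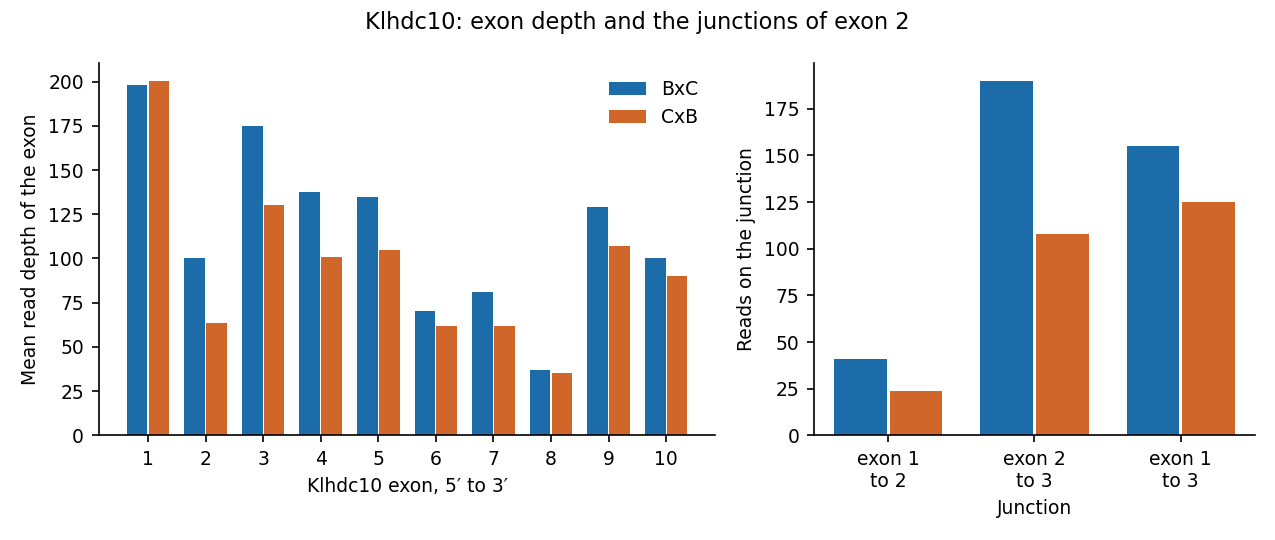
The left panel gives the mean read depth of the 10 exons of Klhdc10 and the right panel the reads on the junctions around exon 2, for BxC and CxB. Exon 2 is shallower than exons 1 and 3 but deeper than exons 6 to 8 in both libraries, and the skipping junction carries 155 and 125 reads.

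Among the kelch-domain genes named Klhdc, Klhdc3 had the highest level, 65.1 RPKM in BxC and 63.6 in CxB, and Klhdc10 came next. Klhdc2 had 11.1 and 13.1 RPKM, and Klhdc8b 12.01 and 12.4. Of the 10 genes of this list with at least 100 reads in each library, 1 passed 1.5-fold, against 1.10% of all annotated genes with as many reads. It was Klhdc7a, with 512 reads in BxC and 289 in CxB and a log2 ratio of -0.59 (-0.81 to -0.38). The Ephx genes, other enzymes of the hydrolase fold, stood far below Mest. Ephx1, the highest, had 2.89 and 3.04 RPKM, and none of the 3 with enough reads passed 1.5-fold.

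Klf14 was barely detected. The annotated gene lies on the minus strand, while the catalog lists the Klf14 entry (chr6:30906021-30908990) on the plus strand and the klf14 entry (chr6:30907683-30908982) on the minus strand. Klf14 had 76 reads in BxC and 34 in CxB, or 0.198 and 0.104 RPKM. Its log2 ratio was -0.93 (-1.56 to -0.33), below the read minimum. With a minimum of 10 reads it would be the 1 member past 1.5-fold, where 7.74% of genes were. The klf14 entry, which lies inside it, had 22 and 3 reads and a log2 ratio of -2.64 (-5.03 to -0.91). Of the reads of the Klf14 entry, 55.3% (43.4 to 66.7%) in BxC and 61.8% (43.6 to 77.8%) in CxB lay on the plus strand. Since strand did not mark the gene in these files, these shares do not assign the reads to a strand.

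The annotation places 33 genes within the same bounds. Only 8 had at least 100 reads in each library. None of the 8 differed by 1.5-fold, with log2 ratios from -0.15 to 0.14, where 1.10% of all annotated genes did. Besides Mest, Copg2 and Klhdc10 these were Mkln1, Tmem209, Zc3hc1, Tsga14 and the lincRNA Gm13845. Mkln1, which encodes muskelin, a kelch-repeat protein of another ubiquitin ligase, had 7129 reads in BxC and 6020 in CxB. Tsga14, which lies between Klhdc10 and Mest and encodes a centrosomal protein, had 1349 and 1269 reads. Cpa4, Cpa1 and Cpa5, which encode carboxypeptidases, had few reads, with 106 in BxC and 81 in CxB for Cpa4, 34 and 18 for Cpa1, and 4 and 0 for Cpa5. The microRNA gene Mir335, which lies within an intron of Mest, had 1 read in BxC and 0 in CxB, and a library of polyadenylated RNA of this kind does not measure the mature microRNA. Tsga13, next to the 5′ end of Copg2, had 3 and 11 reads.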

How the data were processed

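RNA-Seq alignments of whole brain from 1 BxC and 1 CxB embryo at E17.5 were analysed with the authors' catalog of imprinted genes. The authors purified mRNA with Dynabeads, sequenced 36 bases from 1 end, aligned them with Novoalign and kept unique alignments in mm9 coordinates; the version is not given in the sources used here. Which of their alignments was deposited is not stated. The deposited files hold a count on each line, taken here to be how many identical reads the line stands for. This meaning was inferred from the values, and several lines can share a position. The catalog's deposited score column was read only as a check of its format. No column was left unassigned (0).

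The members and gene lists were chosen with earlier results of these data known. Reads were counted where an aligned block overlapped the exons of an entry, or of a gene in GENCODE vM1, which uses the same build. RPM divides by all reads of the library and RPKM also by exon length. A ratio is CxB over BxC RPM with an exact Clopper-Pearson interval at 95%, for counting error only. All such intervals take reads as independent, so they can be too narrow where many reads share a position. A change of 1.5-fold with at least 100 reads in each library served as the call. A count of 0 allows up to 3 reads, or 0.0233 RPM in BxC and 0.0273 in CxB. The design set strand to assign reads, as the authors describe a strand-specific protocol. Since reads fell on both strands of genes, exons and junctions were used. Genes named are the catalog entries, the annotated genes within the bounds, and the COPI, Klhdc and Ephx lists; Map2 was matched under Mtap2. Of the genes within the bounds, 1 is not reported here. Uniqueness was the number of times each run of 36 bases occurs in mm9, and repeats were found with blastn 2.17.0. Counts used Python 3.11.15, pandas 2.3.3 and scipy 1.17.1. The ratio and its interval were run on simulated independent counts. That check holds no sharing of positions by many reads, so it does not test the interval for these data. Alternatives counted lines or positions once, changed the scaling, strand, bases, fold or read minimum, or asked for 6 bases on each side of a junction.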

Additional observations from a re-analysis of the deposited data

How the results depend on the processing

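With 1 library per cross, counting error is the only error known, and the read number on each line drives most values. No paired analysis was possible because each cross has 1 library and no result comes from a test. A value was taken as moved where it left its counting interval, or, for a count, changed by over 1.5 times, and as reversed where its sign changed and its interval had not included 0. Settings not planned in advance, chosen after seeing the data, were distinct positions, the far-side exons of Copg2, its annotated exons without bases shared with Mest, annotated Klhdc10 exons and bases outside all annotated exons. Of the alternatives, 50 left the value within its error, 42 moved it and 2 reversed it. The log2 ratio of mKIAA0265 turned from -0.12 to 0.060 over annotated Klhdc10 exons, and that of Copg2as1 from -0.30 to 0.21 by distinct positions, of which only 598 are possible in so short an entry. The ratio of Peg1 became -0.13 over bases of no other gene and -0.00081 by distinct positions. The ratio of Copg2 became -0.38 over far-side exons, -0.085 by lines and 0.029 on the sense strand, a change of sign of a ratio whose interval included 0. The ratio of Copg2as1 became -0.27 by lines and -0.44 on the sense strand. With 10 reads as the minimum, 1 member, Klf14, passed 1.5-fold. Leaving chromosomes X and M out of the total and scaling by size factors moved no ratio out of its interval; the size factors shift all ratios by -0.00064. The sense share of mKIAA0265 became 44.9% in BxC over annotated exons, and in CxB 44.7% by lines, 44.5% over annotated exons and 43.9% by positions. The sense share of Peg1 rose most, to 58.7% in BxC and 58.3% in CxB by lines and to 60.7% and 59.4% by positions, from 41.8% and 40.9%. That of Copg2 became 46.3% by lines, 53.5% over annotated exons and 45.99% by positions in BxC, and 48.1%, 54.4% and 47.6% in CxB. That of Copg2as1 became 50.3% by lines in both libraries, and by positions 50.9% in both. The plus-strand share of reads from the Mest end to the gap became 53.5% by lines, 48.6% outside all exons and 54.3% by positions in BxC, and 51.4%, 48.3% and 51.9% in CxB. Reads on Copg2 junctions numbered 258 by lines and 247 by positions in BxC, and 225 and 215 in CxB. The rank of Copg2 among the COPI genes fell to 4 without the bases shared with Mest, to 7 by far-side exons in each library (5 in BxC and 6 in CxB by distinct positions) and to 9 without exons 1 to 3. The cause of these shifts was not tested. The use of the main first exon of Mest stayed within its interval under each alternative run.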
